A study of Mus musculus with 16 samples.

Results

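The genes described here are 10 early response genes: the zinc finger factors Egr1, Egr2 and Egr3, the immediate early response genes Ier2, Ier3 and Ier5, the Krüppel-like factors Klf4 and Klf6, the growth regulator Myc and the growth arrest gene Gadd45b. They were taken by name, as the rows of the count table whose Ensembl identifiers carry those symbols. No rule on their values was used, but they were chosen with earlier results of these data known. All 10 were found among the 49585 genes of the table, and all 10 were among the 17741 genes with enough counts to be tested.

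RNA sequencing measured their transcripts in epidermis that had been separated from the skin of SKH-1 mice, a hairless stock, by heat shock at 8 to 12 weeks of age. Exposed knockout epidermis (labelled C/EBPB -/-_UVB) lacked C/EBPB in the epidermis only and was collected 6 h after 100 mJ/cm2 of ultraviolet B (UVB). Exposed control epidermis (K5Cre_UVB) carried the Cre recombinase named K5Cre and had the same dose and interval. Unexposed knockout epidermis (C/EBPB -/-) and unexposed control epidermis (K5Cre) had no irradiation, and each of the 4 groups had 4 libraries. K5 stands for keratin 5, whose promoter is active in the basal keratinocytes of the epidermis and other stratified epithelia. The gene Cebpb encodes C/EBPB, a transcription factor of the basic leucine zipper family that is active in keratinocytes.

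Early response genes are switched on by growth factors, stress and radiation through factors already present in the cell, without new protein synthesis. Many, Egr1 and Egr2 among them, carry binding sites for serum response factor (SRF) in their promoters, and their transcripts are usually short lived, so that a peak within the first hour after a stimulus can be over by the time of a later sample. In epidermis Klf4 is also a steady factor of the barrier-forming upper layers, and Myc drives growth and ribosome synthesis in basal cells.

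The genes lie on 9 chromosomes of the mouse genome (GRCm38, GENCODE M21 annotation), and none has an exon that overlaps an exon of another gene. Egr1 (ENSMUSG00000038418) is on chromosome 18 at 34859823 to 34864984, Egr2 (ENSMUSG00000037868) on chromosome 10 at 67535475 to 67542188, and Egr3 (ENSMUSG00000033730) on chromosome 14 at 70077203 to 70082614. Ier2 (ENSMUSG00000053560), a single-exon gene on chromosome 8 at 84661331 to 84662852, and Ier5 (ENSMUSG00000056708), a single-exon gene on chromosome 1 at 155096361 to 155099636, are both on the minus strand. Ier3 (ENSMUSG00000003541) is on chromosome 17 at 35821684 to 35822923. Klf4 (ENSMUSG00000003032) is on chromosome 4 at 55527143 to 55532466, Klf6 (ENSMUSG00000000078) on chromosome 13 at 5861482 to 5870394, Myc (ENSMUSG00000022346) on chromosome 15 at 61985391 to 61990374, and Gadd45b (ENSMUSG00000015312) on chromosome 10 at 80930073 to 80932204.

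The libraries held 33.0 to 53.3 M counts. Cebpb, the deleted gene, was read in counts-per-million (CPM) units, with library sizes adjusted between libraries by the trimmed mean of M-values (TMM). It gave 2.52, 3.03, 0.609 and 1.56 CPM in exposed knockout epidermis and 253, 305, 286 and 320 CPM in exposed control epidermis. It read 0.702, 0.177, 0.543 and 0.875 CPM in unexposed knockout epidermis and 186, 160, 164 and 155 CPM in unexposed control epidermis. Every library thus matched the genotype of its label. Cebpb does not check the UVB part of the labels, since exposed and unexposed knockout libraries overlapped. Mitochondrial transcripts took 4.33% to 10.2% of the counts, and 3 libraries were above 9%: unexposed knockout library 4 and exposed control libraries 3 and 4. Calls of the 10 genes that change without these 3 are given with both values. For related genes such changes fall within the ranges or counts given over all alternatives. By group, the mitochondrial share was 5.44% to 5.99% in exposed knockouts and 5.24% to 9.65% in exposed controls. It was 4.33% to 10.2% in unexposed knockouts and 5.62% to 8.57% in unexposed controls. At an equal depth of 33.0 M counts, 19207 to 21538 genes were detected in exposed knockouts and 16987 to 19318 in exposed controls. The unexposed ranges were 18810 to 21155 in knockouts and 18454 to 19929 in controls. The part of this in the comparisons was not tested. Before TMM scaling, the summed keratinocyte markers ranged from 31835 to 62991 CPM over all libraries, while fibroblast markers stayed at or under 9.77 CPM and endothelial markers at or under 2.55 CPM. In bulk epidermis, fewer cells of a type and less RNA per cell cannot be told apart.

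The 250 bases before a RefSeq transcript start (GRCm38.p6) were searched on both strands for 7 short motifs in the 6 genes with an entry: Egr2, Ier3, Ier5, Klf4, Klf6 and Gadd45b. The motifs were the CArG box bound by SRF, the short cyclic AMP response site TGACG, the CCAAT box, the TATA forms TATAAA and TATATAA, the C/EBP-type palindrome TTNCGNAA and the AP-1 site TGAGTCA. The windows of 4 genes are printed, 3 of genes that rose after UVB in both genotypes and that of Gadd45b, which fell in controls, so that the promoters of genes that moved in different directions can be read side by side. Letters run 5′ to 3′ on the gene's strand and end at the base before the start, and capitals mark matches to the motifs or to their reverse complements.
Egr2, chr10:67537619-67537868, plus strand: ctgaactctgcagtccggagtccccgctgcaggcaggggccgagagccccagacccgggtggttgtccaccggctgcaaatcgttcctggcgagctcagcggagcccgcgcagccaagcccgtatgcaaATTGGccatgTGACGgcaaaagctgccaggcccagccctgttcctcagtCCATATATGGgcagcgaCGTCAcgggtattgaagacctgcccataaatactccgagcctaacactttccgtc
Ier3, chr17:35821463-35821712, plus strand: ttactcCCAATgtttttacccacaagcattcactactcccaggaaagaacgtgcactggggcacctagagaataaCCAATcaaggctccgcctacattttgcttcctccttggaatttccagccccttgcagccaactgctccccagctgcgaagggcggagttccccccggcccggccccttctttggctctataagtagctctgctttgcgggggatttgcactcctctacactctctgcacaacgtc
Ier5, chr1:155099637-155099886, minus strand: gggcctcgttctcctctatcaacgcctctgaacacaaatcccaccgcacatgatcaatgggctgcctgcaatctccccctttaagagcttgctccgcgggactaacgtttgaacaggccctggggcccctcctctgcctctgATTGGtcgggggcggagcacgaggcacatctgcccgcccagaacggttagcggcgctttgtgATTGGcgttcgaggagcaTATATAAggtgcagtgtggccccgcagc
Gadd45b, chr10:80929841-80930090, plus strand: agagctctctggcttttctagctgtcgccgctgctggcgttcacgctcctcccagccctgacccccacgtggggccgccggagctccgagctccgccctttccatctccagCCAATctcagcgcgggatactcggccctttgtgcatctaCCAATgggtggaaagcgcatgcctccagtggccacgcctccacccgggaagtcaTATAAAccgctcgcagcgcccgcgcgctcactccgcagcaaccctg

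The Egr2 window held a CArG box at -72 to -63 from the start, between TGACG matches at -111 to -107 and at -55 to -51, and a CCAAT match at -121 to -117. Ier3, Ier5 and Gadd45b each held 2 CCAAT matches, Ier5 also held TATATAA at -28 to -22, and Gadd45b held TATAAA at -46 to -41. Klf4 held 1 TGACG match and Klf6 held 4 CCAAT matches in windows not printed. Of all 32851 RefSeq windows of this length, 1.47% held a CArG box, 17.8% TGACG, 33.8% CCAAT, 12.4% TATAAA, 3.04% TATATAA, 2.04% TTNCGNAA and 4.46% TGAGTCA. Egr2 has 5 RefSeq starts, and 4 of its 5 windows held a CArG box, but 3 of these windows overlap one another. The only TTNCGNAA match in the 10 windows of these genes was in the window of the second Egr2 start, and TGAGTCA matched in none of them. A match describes the letters only, and binding was not measured.

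Transcripts-per-million values (TPM), counts divided by exon length and scaled to the same sum in every library, place the genes on one scale within a group. In exposed knockout epidermis Klf4 averaged 1626 ± 63.5 TPM (SD, n = 4), Ier3 265 ± 30.1, Ier2 210 ± 14.8, Ier5 140 ± 9.71, Klf6 133 ± 18.8, Egr2 103 ± 19.3 and Gadd45b 101 ± 2.89, above Egr1 at 31.4 ± 4.33, Myc at 28.8 ± 5.41 and Egr3 at 27.8 ± 7.51 TPM. The library ranges of neighbours in this order overlapped except between Klf4 and Ier3, Ier2 and Ier5, and Gadd45b and Egr1. In exposed control epidermis the order was Klf4 at 1576 ± 258 TPM, Ier3 at 229 ± 32.7, Ier2 at 166 ± 11.6, Klf6 at 142 ± 36.5, Ier5 at 118 ± 13.1, Egr2 at 96.2 ± 21.8, Gadd45b at 73.9 ± 4.49, Egr3 at 30.7 ± 7.77, Egr1 at 21.9 ± 5.09 and Myc at 16.6 ± 2.50 TPM. Here neighbours overlapped except between Klf4 and Ier3, Ier3 and Ier2, and Gadd45b and Egr3.

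In unexposed knockout epidermis Klf4 was alone at the top with 1274 ± 145 TPM. Ier3 averaged 145 ± 47.5 TPM, Ier2 142 ± 41.7, Gadd45b 125 ± 28.4, Klf6 102 ± 11.2, Ier5 87.2 ± 25.9, Egr2 54.6 ± 13.6, Egr1 26.9 ± 7.51, Myc 19.3 ± 7.01 and Egr3 18.6 ± 7.14 TPM, and the ranges of all neighbours below Klf4 overlapped. In unexposed control epidermis Klf4 averaged 982 ± 171 TPM and ranked at position 94 of 49326 genes, Gadd45b averaged 130 ± 28.0, Ier3 122 ± 25.6, Ier2 115 ± 23.5, Klf6 90.8 ± 13.4, Ier5 83.7 ± 12.8, Egr2 53.8 ± 13.6, Egr3 22.8 ± 3.46, Egr1 21.0 ± 7.68 and Myc 16.3 ± 2.35 TPM, with Myc at position 4803. Neighbours overlapped except between Klf4 and Gadd45b and between Egr2 and Egr3. Gadd45b, the seventh gene by mean in both exposed groups, was the second in unexposed controls. TPM were not scaled between libraries, so they order the genes within a group and are not compared across groups.

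**Figure D1:**
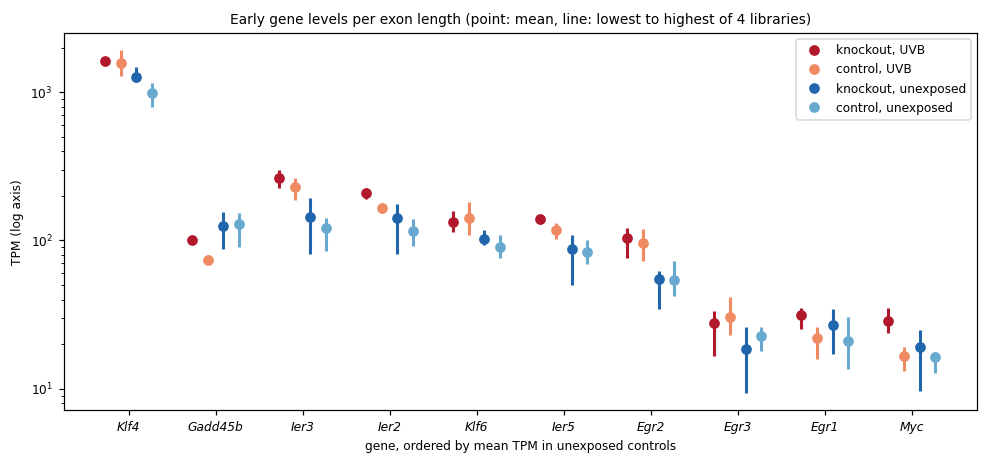
Mean TPM of the 10 genes in each group (points), with a line from the lowest to the highest of the 4 libraries, on a logarithmic axis; genes are ordered by their mean in unexposed controls. Klf4, at 982 TPM in unexposed controls, stands above the other genes in every group, and Egr1, Egr3 and Myc are the lowest in every group.

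The UVB comparisons asked which of these genes were changed 6 h after irradiation, with no earlier time measured. In knockout epidermis 6 of the 10 genes rose (Egr2, Egr3, Ier2, Ier3, Ier5 and Myc), 0 fell and 4 did not pass the test, beside 18.1% of all tested genes that rose and 14.1% that fell. In control epidermis 7 rose (Egr2, Egr3, Ier2, Ier3, Ier5, Klf4 and Klf6), Gadd45b fell and 2 did not pass, beside 17.7% of all tested genes that rose and 18% that fell. Egr1 passed the test in neither genotype. Without the 3 libraries above 9% mitochondrial counts 6 genes rose in knockouts, Klf4 in place of Egr3, and 7 genes were called in controls, without Egr3. The median log2 fold change of the 10 genes was 0.65 in knockouts and 0.70 in controls, against 0.01 and -0.02 over all tested genes. A gene is said to rise or fall where the edgeR quasi-likelihood test over all tested genes gave an adjusted p under 0.05, and the 4 libraries of a group are given in the order 1 to 4.

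**Figure D2:**
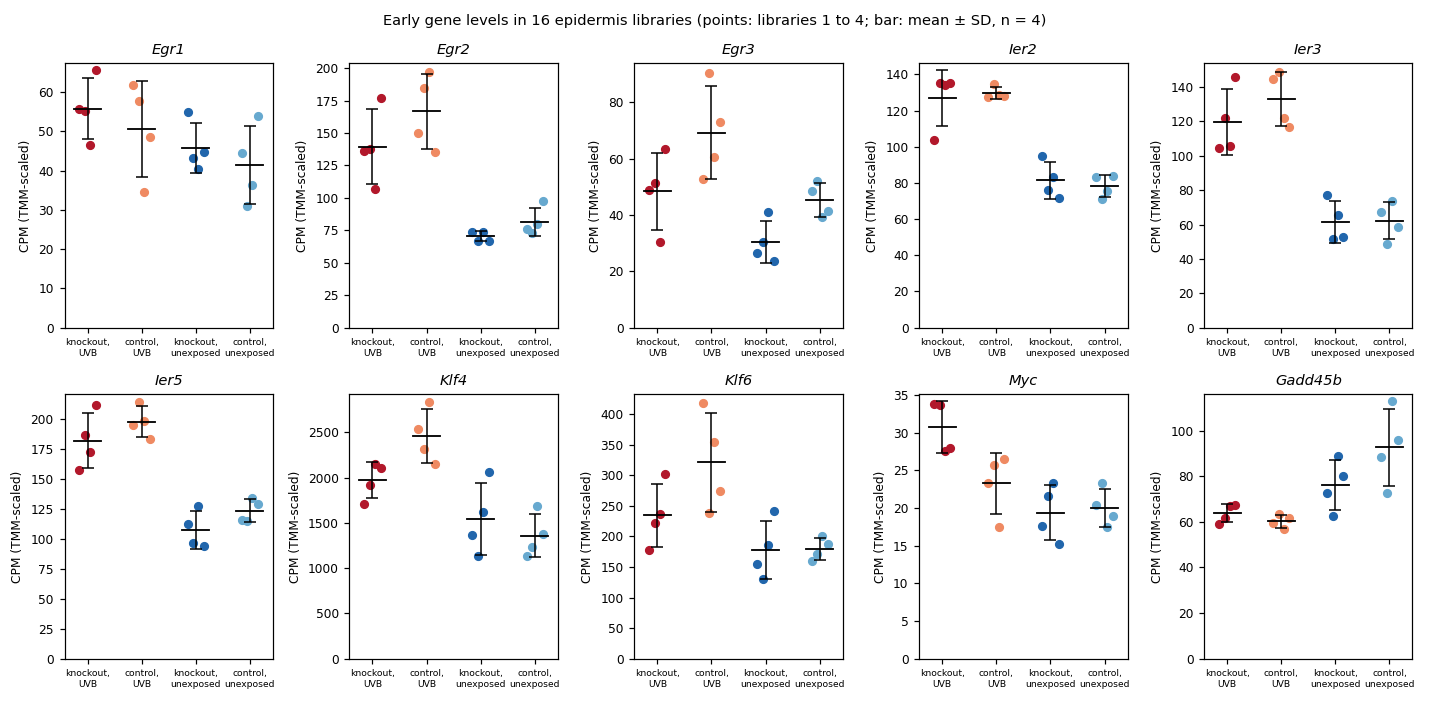
CPM of the 10 genes in each library (points), with the mean and SD of each group of 4 libraries. The exposed libraries of Egr2, Ier2, Ier3 and Ier5 lie above the unexposed ones of the same genotype, while for Egr1 they overlap and for Gadd45b the exposed means are the lower ones.

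Among the EGR factors, zinc finger transcription factors that bind GC-rich sites, Egr2 had the largest change. Egr2 read 136, 138, 107 and 177 CPM in exposed knockout epidermis, against 73.6, 66.9, 73.8 and 67.1 CPM in unexposed knockout epidermis. It read 150, 184, 197 and 135 CPM in exposed control epidermis, against 76.0, 72.8, 79.7 and 97.5 CPM in unexposed control epidermis. Every exposed library was above every unexposed library of its genotype. Egr2 rose 1.98-fold in knockouts (log2 fold change 0.99, SE 0.15, edgeR adjusted p = 3.59e-05) and 2.05-fold in controls (1.03, SE 0.15, adjusted p = 1.72e-05).

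Egr3, the relative best known from muscle spindles and lymphocytes, read 48.9, 51.3, 30.3 and 63.5 CPM in exposed knockouts, against 26.6, 30.4, 41.1 and 23.8 CPM in unexposed knockouts. It read 52.9, 90.6, 60.5 and 73.2 CPM in exposed controls, against 48.5, 52.2, 39.5 and 41.3 CPM in unexposed controls. The groups overlapped in knockouts, through exposed library 3 and unexposed library 3, and in controls the lowest exposed library was just above the highest unexposed one. Egr3 rose 1.59-fold in knockouts (log2 fold change 0.67, SE 0.21, edgeR adjusted p = 0.017) and 1.53-fold in controls (0.61, SE 0.21, adjusted p = 0.0262). Both calls depended on single libraries: the edgeR adjusted p was 0.134 without exposed knockout library 4, 0.0933 without unexposed knockout library 4, 0.0504 without unexposed knockout library 1, 0.169 without exposed control library 2, 0.0564 without exposed control library 4, 0.0855 without unexposed control library 3 and 0.071 without unexposed control library 4. Without the 3 libraries above 9% mitochondrial counts the adjusted p was 0.128 in knockouts and 0.0895 in controls. With all libraries but no filter on low counts, the Egr3 call in controls was lost as well (log2 fold change 0.54, edgeR adjusted p = 0.0575).

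Egr1, the family member most often measured as an immediate early gene, read 55.6, 55.3, 46.6 and 65.7 CPM in exposed knockouts, against 55.0, 43.1, 40.4 and 44.6 CPM in unexposed knockouts. It read 61.9, 57.8, 34.5 and 48.5 CPM in exposed controls, against 44.5, 31.0, 36.3 and 53.9 CPM in unexposed controls. The groups overlapped in both genotypes. Its log2 fold change was 0.28 in knockouts (95% interval -0.10 to 0.67, edgeR adjusted p = 0.272) and 0.29 in controls (-0.09 to 0.67, adjusted p = 0.24), intervals whose upper ends lie below the fitted changes of Egr2.

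The 3 IER genes moved alike. Ier2, a small nuclear protein gene, read 104, 135, 134 and 135 CPM in exposed knockouts, against 94.8, 75.9, 83.2 and 71.4 CPM in unexposed knockouts. It read 128, 135, 129 and 128 CPM in exposed controls, against 83.0, 71.2, 75.5 and 84.0 CPM in unexposed controls. No exposed library overlapped the unexposed ones, and exposed knockout library 1 was well below the other 3 of its group. Ier2 rose 1.56-fold in knockouts (log2 fold change 0.64, SE 0.12, edgeR adjusted p = 0.000232) and 1.65-fold in controls (0.73, SE 0.12, adjusted p = 5.76e-05).

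Ier3, whose protein (also called IEX-1) acts in cell survival under stress, read 104, 122, 105 and 146 CPM in exposed knockouts, against 77.4, 51.3, 65.4 and 52.8 CPM in unexposed knockouts. It read 145, 149, 122 and 117 CPM in exposed controls, against 67.4, 48.7, 73.5 and 58.8 CPM in unexposed controls. Its groups did not overlap in either genotype, and it had the largest rise of the 10 genes in controls, 2.14-fold (log2 fold change 1.10, SE 0.16, edgeR adjusted p = 1.6e-05). In knockouts it rose 1.93-fold (0.95, SE 0.16, adjusted p = 9.16e-05).

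Ier5, a radiation-inducible gene whose protein binds heat shock factor 1, read 157, 187, 173 and 211 CPM in exposed knockouts, against 113, 96.3, 128 and 93.8 CPM in unexposed knockouts. It read 195, 214, 198 and 183 CPM in exposed controls, against 116, 115, 134 and 129 CPM in unexposed controls. Again every exposed library was above every unexposed one. Ier5 rose 1.69-fold in knockouts (log2 fold change 0.76, SE 0.12, edgeR adjusted p = 7.09e-05) and 1.60-fold in controls (0.68, SE 0.12, adjusted p = 0.000178). Ier5l, its relative by sequence, rose 2.77-fold in knockouts and 3.96-fold in controls.

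Since the epidermis was isolated by heat shock, the heat shock genes were read beside these values. Their summed level, over 9 genes and before TMM scaling, was 1129 to 1323 CPM in exposed knockouts and 439 to 908 CPM in unexposed knockouts. It was 826 to 1291 CPM in exposed controls and 526 to 659 CPM in unexposed controls, so the heat shock sum was also higher in the exposed libraries of both genotypes. Of the 9 genes, 4 rose in knockouts and 3 in controls, and 0 fell. Of all tested genes 18.1% rose and 14.1% fell in knockouts, and 17.7% rose and 18% fell in controls. The median log2 fold change of the 9 heat shock genes was 0.38 in knockouts and only 0.01 in controls. In controls the higher sum was thus not a rise of most of them. The part of this in the early gene values was not tested.

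The Krüppel-like factors passed the test in controls and not in knockouts. Klf4, a zinc finger factor needed for the epidermal barrier, read 1710, 1915, 2154 and 2106 CPM in exposed knockouts, against 1367, 1130, 1615 and 2059 CPM in unexposed knockouts. It read 2540, 2310, 2834 and 2154 CPM in exposed controls, against 1139, 1229, 1683 and 1373 CPM in unexposed controls. The control groups did not overlap, and in knockouts unexposed library 4 was higher than 2 of the exposed libraries. Klf4 rose 1.81-fold in controls (log2 fold change 0.86, SE 0.17, edgeR adjusted p = 0.000486), and in knockouts its log2 fold change was 0.35 (95% interval -0.00 to 0.71, adjusted p = 0.127).

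Klf6, a widely expressed relative studied in growth control and injury, read 178, 222, 236 and 301 CPM in exposed knockouts, against 156, 130, 186 and 241 CPM in unexposed knockouts. It read 418, 238, 355 and 274 CPM in exposed controls, against 159, 172, 201 and 187 CPM in unexposed controls. The control groups did not overlap and the knockout groups did. Klf6 rose 1.79-fold in controls (log2 fold change 0.84, SE 0.19, edgeR adjusted p = 0.0018), and in knockouts its log2 fold change was 0.39 (95% interval -0.01 to 0.80, adjusted p = 0.132). In knockouts both genes passed the test without unexposed library 4, the library with the most mitochondrial counts, where the log2 fold change of Klf4 was 0.48 (adjusted p = 0.0294) and that of Klf6 0.53 (adjusted p = 0.0423). Without all 3 libraries above 9% mitochondrial counts Klf4 also passed (log2 fold change 0.47, edgeR adjusted p = 0.026).

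Myc, a basic helix-loop-helix factor that pairs with Max, showed the other order, with a call in knockouts and none in controls. It read 33.7, 33.6, 27.5 and 27.9 CPM in exposed knockouts, against 17.6, 21.6, 23.3 and 15.2 CPM in unexposed knockouts. It read 23.3, 25.8, 17.5 and 26.5 CPM in exposed controls, against 20.4, 23.3, 17.4 and 18.9 CPM in unexposed controls. The knockout groups did not overlap, and the control groups did. Myc rose 1.58-fold in knockouts (log2 fold change 0.66, SE 0.17, edgeR adjusted p = 0.00382), and in controls its log2 fold change was 0.22 (95% interval -0.13 to 0.56, adjusted p = 0.34).

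Gadd45b, whose protein binds stress kinases and takes part in growth arrest and DNA demethylation, was the only one of the 10 genes whose exposed means were lower. It read 59.1, 61.7, 66.8 and 67.5 CPM in exposed knockouts, against 72.8, 62.7, 88.9 and 80.0 CPM in unexposed knockouts. It read 59.4, 63.5, 56.9 and 61.6 CPM in exposed controls, against 88.6, 72.7, 113 and 96.0 CPM in unexposed controls. All exposed control libraries were below all unexposed control libraries, and the knockout groups overlapped. Gadd45b was 1.53-fold lower in exposed controls (log2 fold change -0.62, SE 0.13, edgeR adjusted p = 0.00101), and its log2 fold change in knockouts was -0.25 (95% interval -0.53 to 0.02, adjusted p = 0.163). The related Gadd45a, a p53 target in many cells, was 1.93-fold lower in exposed than in unexposed controls (edgeR adjusted p = 0.000166), and its log2 fold change after UVB in knockouts was -0.20 (adjusted p = 0.411). Between the unexposed genotypes Gadd45a averaged 34.1 ± 8.53 CPM in knockouts and 73.3 ± 12.3 CPM in controls, 2.15-fold lower (edgeR adjusted p = 0.00114, a call that held in all 15 alternatives).

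Counted by library, 5 of the 10 genes in knockouts had every exposed library above every unexposed one, beside 19.7% of all tested genes, and 0 had every exposed library below, beside 16.1%. In controls 7 of the 10 did, beside 16.3%, and 1 of the 10 had every exposed library below, beside 17.5%.

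**Figure D3:**
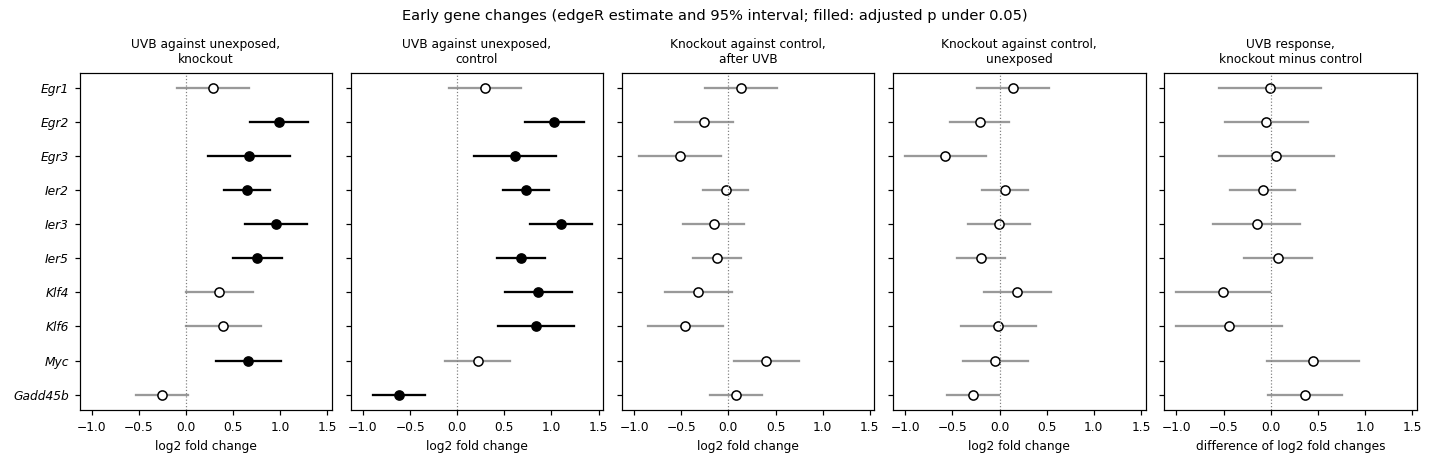
Log2 fold changes of the 10 genes with 95% intervals in the 5 comparisons, one panel each. In each UVB panel 9 genes lie above 0 and Gadd45b below, and in the panels that compare genotypes most intervals cross 0.

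The genotype comparisons asked what the loss of C/EBPB changed at each condition. After UVB, 0 of the 10 genes passed in edgeR, DESeq2 or limma voom, beside 4.68% of all tested genes in edgeR, and 3 were under an unadjusted p of 0.05, beside 20.3%. Those 3 were Egr3, Klf6 and Myc. Egr3 averaged 48.5 ± 13.7 CPM in exposed knockouts and 69.3 ± 16.5 CPM in exposed controls (SD, n = 4 each), a log2 fold change of -0.52 (95% interval -0.95 to -0.08, edgeR adjusted p = 0.161). Klf6 averaged 234 ± 51.2 CPM in exposed knockouts and 321 ± 80.8 CPM in exposed controls, a log2 fold change of -0.46 (95% interval -0.86 to -0.05, edgeR adjusted p = 0.183). Both genes overlapped between the genotypes.

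Myc averaged 30.7 ± 3.44 CPM in exposed knockouts and 23.3 ± 4.07 CPM in exposed controls, and the lowest knockout library, 27.5 CPM, was above the highest control library, 26.5 CPM. Its log2 fold change was 0.40 (95% interval 0.05 to 0.75, edgeR adjusted p = 0.174). It was the 1 gene of the 10 with every knockout library above the controls, beside 6.47% of all tested genes. Klf4 averaged 1971 ± 202 CPM in exposed knockouts and 2460 ± 296 CPM in exposed controls, a log2 fold change of -0.32 (95% interval -0.67 to 0.04, edgeR adjusted p = 0.305), and exposed knockout library 3 and exposed control library 4 were level at 2154 CPM after rounding, the knockout just below. By that margin Klf4 was the 1 gene with every knockout library lower, beside 4.84% of all tested genes. This separation depended on the TMM scaling, whose factors were 0.974 to 1.12 in exposed knockouts and 0.867 to 0.907 in exposed controls. Counts over library totals overlapped. The intervals were narrowest around 0 for Ier2 (log2 fold change -0.03, 95% interval -0.27 to 0.21) and Ier5 (-0.12, -0.37 to 0.13).

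In unexposed epidermis 0 of the 10 genes passed in edgeR, DESeq2 or limma voom, beside 2.1% of all tested genes in edgeR, and 2 were under an unadjusted p of 0.05, beside 12.4%. Egr3 averaged 30.5 ± 7.60 CPM in unexposed knockouts and 45.4 ± 5.99 CPM in unexposed controls, a log2 fold change of -0.57 (95% interval -1.01 to -0.14, edgeR adjusted p = 0.196), and the groups overlapped through knockout library 3 at 41.1 CPM. Gadd45b averaged 76.1 ± 11.1 CPM in unexposed knockouts and 92.6 ± 16.8 CPM in unexposed controls, a log2 fold change of -0.28 (95% interval -0.56 to -0.01, edgeR adjusted p = 0.388), also with overlap. Ier3 averaged 61.7 ± 12.2 CPM in unexposed knockouts and 62.1 ± 10.8 CPM in unexposed controls, Klf6 178 ± 47.5 and 180 ± 18.2 CPM, and Myc 19.4 ± 3.68 and 20.0 ± 2.50 CPM. The 95% intervals of their log2 fold changes, -0.33 to 0.32 for Ier3, -0.41 to 0.39 for Klf6 and -0.39 to 0.30 for Myc, leave room for differences of up to about those sizes. For 0 of the 10 genes were the unexposed genotypes free of overlap, beside 10% of all tested genes. The median log2 fold change of the 10 genes was -0.14 after UVB and -0.03 unexposed, against 0.04 and 0.00 over all tested genes.

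Whether the UVB response itself differed between genotypes was tested as the knockout response minus the control response. In edgeR 0 of the 10 genes passed, as did 0% of all tested genes, and 1 of the 10 was under an unadjusted p of 0.05, beside 5.88% of all tested genes. DESeq2 and limma voom also called 0 of the 10. The 1 gene was Klf4, with a difference of -0.51 on the log2 scale (SE 0.24, 95% interval -1.01 to -0.00, edgeR adjusted p = 0.844). The difference was -0.44 for Klf6 (-1.01 to 0.12, edgeR adjusted p = 0.899), 0.44 for Myc (-0.04 to 0.93, adjusted p = 0.88) and 0.36 for Gadd45b (-0.03 to 0.76, adjusted p = 0.876). So the calls that Klf4, Klf6, Myc and Gadd45b made in a single genotype do not show that their responses differed. For Egr2 the difference was -0.04 (-0.48 to 0.39) and for Ier2 -0.08 (-0.43 to 0.26).

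**Figure D4:**
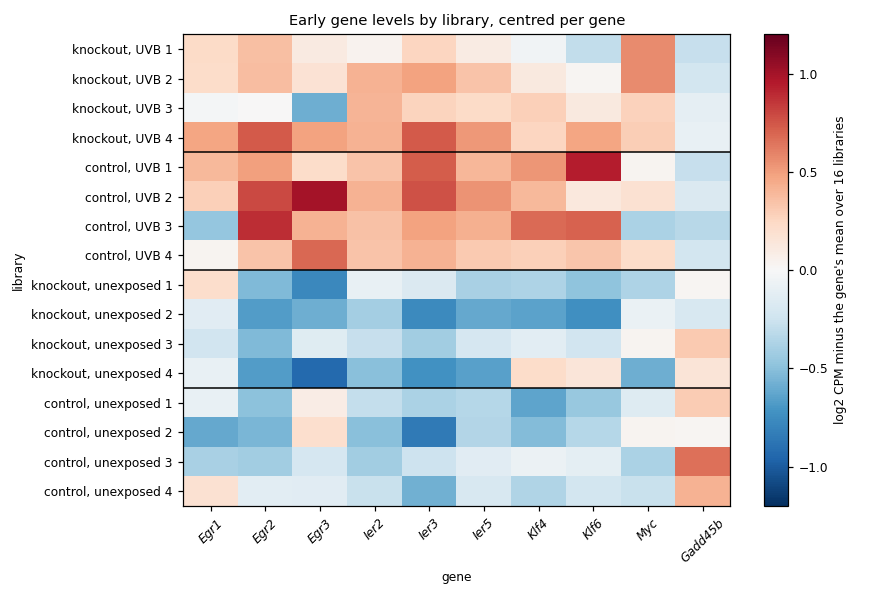
Log2 CPM of each gene in each of the 16 libraries minus the gene's mean over all libraries, with 1 row per library, grouped as exposed knockout, exposed control, unexposed knockout and unexposed control. Ier2, Ier3 and Ier5 are above their means in all exposed rows and below them in all unexposed rows, and Gadd45b is below its mean in all exposed rows.

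The profiles over the 16 libraries were compared by the root mean square difference between z-scored log2 CPM values, where 0 means an identical profile and the unit is 1 SD of a gene over the libraries. Of the 10 genes, the closest pairs were Ier3 with Ier5 at 0.301, Ier2 with Ier3 at 0.303 and Egr2 with Ier5 at 0.308, and Klf4 was closest to Klf6 at 0.405. Among 13192 tested genes that averaged 1 CPM or more, Tnfrsf1a (0.164) and Fbxo28 (0.172) were nearest to Ier3, Pcdh1 (0.168) and Tmem125 (0.177) to Ier5, Dcaf12 (0.211) and Sar1a (0.213) to Ier2, and Rassf1 (0.223) and Elf5 (0.224) to Egr2. Rbbp6 (0.269) and Top1 (0.275) were nearest to Klf4, Top1 (0.282) and Samd4b (0.297) to Klf6, and Lrrfip2 (0.277) and Txnrd1 (0.385) to Gadd45b. The nearest profiles were farther away for Myc, at 0.377 for Psma5 and 0.390 for Sf3a1, for Egr3, at 0.402 for Golga5 and 0.440 for Pdcd6ip, and for Egr1, at 0.469 for Gm15832 and 0.492 for Brd7. These are descriptions over libraries that share the UVB contrast.

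Related genes were read from lists chosen by function, and their counts stand beside the shares of all tested genes. After UVB 18.1% of all tested genes rose and 14.1% fell in knockouts, and 17.7% rose and 18% fell in controls. Between genotypes 2.1% were called unexposed and 4.68% after UVB. Of 24 other serum early genes tested, 16 rose and 0 fell in knockouts after UVB, and 20 rose and 0 fell in controls, with median log2 fold changes of 0.81 and 1.22. Phlda1, a pleckstrin homology domain gene, averaged 182 ± 52.4 CPM in exposed knockouts and 24.5 ± 7.50 CPM in unexposed knockouts, a 7.42-fold rise, and 288 ± 99.0 CPM in exposed controls and 14.7 ± 2.08 CPM in unexposed controls, a 19.6-fold rise. Zfp36, whose protein hastens decay of AU-rich mRNAs, rose 3.30-fold in knockouts and 3.87-fold in controls. Arc, best known from synapses, rose 4.40-fold in knockouts and 9.04-fold in controls, and Trib1, a pseudokinase gene, rose 3.27-fold in knockouts and 2.85-fold in controls. The calls of these 4 genes held in every alternative fit that was run.

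Between genotypes, 1 of the 24 serum early genes rose and 1 fell in unexposed knockouts. Trib1 averaged 22.6 ± 1.93 CPM in unexposed knockouts and 40.2 ± 2.77 CPM in unexposed controls, 1.78-fold lower (edgeR adjusted p = 0.00581). Nr4a1, an orphan nuclear receptor gene, was 3.85-fold higher (edgeR adjusted p = 0.0355) at low counts. It averaged 3.24 ± 1.94 CPM in unexposed knockouts, with a highest library of 6.12 CPM, and 0.838 ± 0.370 CPM in unexposed controls. Without unexposed knockout library 1 its edgeR adjusted p was 0.187. After UVB 1 of 24 rose and 2 fell in knockouts: Zfp36l2 was 1.98-fold higher (edgeR adjusted p = 0.0165), Trib1 1.55-fold lower (adjusted p = 0.0203) and Btg2, an antiproliferative p53 target, 1.45-fold lower (adjusted p = 0.0481). The calls of Nr4a1, Zfp36l2 and Btg2, and that of Trib1 after UVB, were lost in some alternatives, with edgeR adjusted p-values of up to 0.187, 0.0866, 0.152 and 0.0754.

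Genes known as MYC targets in ribosome synthesis and growth mostly rose in both genotypes. Of 22 tested, 20 rose and 1 fell in knockouts and 19 rose and 1 fell in controls, with median log2 fold changes of 1.03 and 0.92. Odc1, the rate-limiting enzyme of polyamine synthesis, averaged 242 ± 71.9 CPM in exposed knockouts and 7.99 ± 3.55 CPM in unexposed knockouts, a 30.1-fold rise (edgeR adjusted p = 2.61e-07). It averaged 147 ± 34.7 CPM in exposed controls and 3.17 ± 1.16 CPM in unexposed controls, a 46.2-fold rise (adjusted p = 6.59e-08). Nolc1, a nucleolar phosphoprotein gene, rose 2.88-fold in knockouts and 3.56-fold in controls, and Gnl3, which encodes nucleostemin, rose 2.69-fold and 3.06-fold. The list's fall was Ccnd2, which encodes cyclin D2, 1.79-fold lower in knockouts and 2.42-fold lower in controls. Between genotypes 0 of 22 passed unexposed and 1 fell after UVB, Eif4e, the cap-binding factor, 1.53-fold lower in knockouts (edgeR adjusted p = 0.0277, up to 0.0983 in the alternatives).

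**Figure D5:**
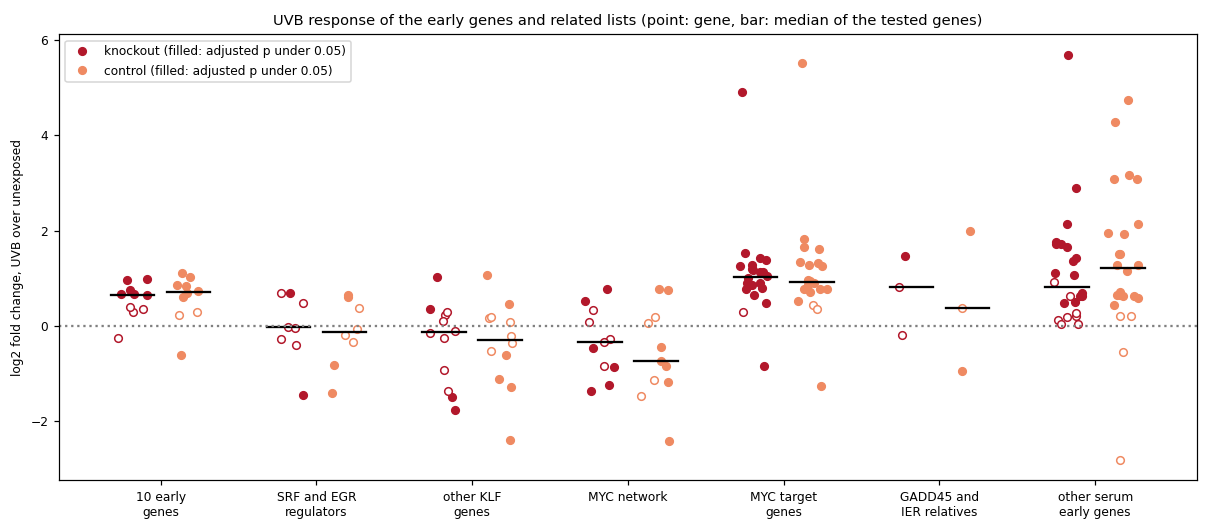
Log2 fold changes after UVB of the 10 early genes and of the genes of the 6 related lists, knockout left of control, one point per gene with the median of each list. The MYC target and serum early lists lie mostly above 0, with medians of 1.03 and 0.81 in knockouts, and the MYC network list lies mostly below 0.

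The remaining lists went both ways. Of 11 MYC network genes, partners and antagonists of MYC, 2 rose and 4 fell in knockouts and 2 rose and 5 fell in controls. Mxd1 (1.43-fold in knockouts, 1.67-fold in controls) and Mlx (1.70-fold in both) rose. Mxd4 was 2.36-fold lower in knockouts and 2.29-fold lower in controls, Mlxip was 1.83-fold lower in knockouts and 1.66-fold lower in controls, Mxi1 1.39-fold and 1.36-fold lower, and Mycl 2.59-fold and 5.34-fold lower. Mga was 1.81-fold lower in controls, and in knockouts its log2 fold change was -0.35 (edgeR adjusted p = 0.0609, down to 0.0192 in the alternatives). Without exposed control library 2 the log2 fold change of Mycl in controls was -3.04, against -2.42 with it. Of 12 other KLF genes, 2 rose and 2 fell in knockouts and 2 rose and 4 fell in controls. Over all tested genes 18.1% rose and 14.1% fell in knockouts, and 17.7% rose and 18% fell in controls. The KLF counts in knockouts were near these shares. So were the 2 rises among KLF genes in controls, and the 2 rises of the MYC network in both genotypes. Klf10, a gene induced by transforming growth factor beta, rose 2.03-fold in knockouts and 2.08-fold in controls, and Klf9, a glucocorticoid and clock-linked gene, was 3.43-fold lower in knockouts and 5.26-fold lower in controls. Klf3 rose 1.28-fold in knockouts (edgeR adjusted p = 0.0453, up to 0.312 in the alternatives) and 1.38-fold in controls (adjusted p = 0.00941, and 0.0797 without exposed control library 2). Klf12 was 2.84-fold lower in knockouts and 2.18-fold lower in controls (edgeR adjusted p = 0.00292 and 0.0203, the last up to 0.109 in the alternatives). Klf8 and Klf7 were 2.45-fold and 1.54-fold lower in controls, and their log2 fold changes in knockouts were -0.12 and 0.10 (edgeR adjusted p = 0.838 and 0.745). After UVB, Klf7, Klf8 and Klf9 were 2.06-fold, 3.40-fold and 1.83-fold higher in knockouts than in controls (edgeR adjusted p = 0.00215, 0.00442 and 0.00727, the last up to 0.0632 in the alternatives), the 3 calls among the 12, and 0 of 12 passed unexposed.

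Of 8 regulators that act with SRF or EGR factors, 1 rose and 1 fell in knockouts and 2 rose and 2 fell in controls. The shares of all tested genes were 18.1% and 14.1% in knockouts and 17.7% and 18% in controls. With 8 genes, counts of 1 or 2 were near these shares. Elk4, a partner of SRF, rose 1.61-fold in knockouts and 1.56-fold in controls, and Mrtfb, a coactivator of SRF, was 2.75-fold lower in knockouts and 2.66-fold lower in controls. Srf rose 1.52-fold in controls (edgeR adjusted p = 0.0478, up to 0.169 in the alternatives), and its log2 fold change in knockouts was 0.47 (adjusted p = 0.136). Nab1, a corepressor of EGR factors, was 1.78-fold lower in controls, and in knockouts its log2 fold change was -0.41 (edgeR adjusted p = 0.0633, under 0.05 in 9 of 15 alternatives). In none of the 6 lists did a gene's UVB response differ between genotypes by the edgeR test.

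Neutrophils, which can enter irradiated skin, were read through 5 marker transcripts: S100a8, S100a9, Cxcr2, Csf3r and Ly6g. Their summed level before TMM scaling was 321 to 556 CPM in exposed knockouts and 80.7 to 212 CPM in unexposed knockouts, and 607 to 958 CPM in exposed controls and 61.5 to 236 CPM in unexposed controls. Of the 4 markers tested, 2 rose in knockouts and 3 in controls, beside 18.1% and 17.7% of all tested genes. Ly6g was at 0 in all groups but exposed controls. Between the exposed genotypes 0 of the 4 passed the edgeR test. The cells that made these transcripts were not identified. Langerhans cell markers summed to 880 to 1174 CPM in exposed knockouts and 600 to 803 CPM in exposed controls. Of these 6 markers 3 were higher in exposed knockouts, beside 4.68% of all tested genes called. Unexposed sums were 537 to 1190 CPM in knockouts and 593 to 822 CPM in controls, where 0 of 6 passed. The median log2 fold change was 0.83 after UVB and 0.51 unexposed. T cell markers summed to 61.0 to 102 CPM in exposed knockouts and 48.8 to 58.6 CPM in exposed controls, and 0 of 5 passed. The part of these cells in the early gene values was not tested.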

How the data were processed

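RNA was sequenced from 16 epidermis libraries, 4 per group, which a strand-marking kit (NEBNext Ultra Directional) was used to prepare, per the labels' protocols. The authors deposited raw counts per Ensembl gene. Per the submitters' processing notes they used FastQC, STAR, HTSeq and DESeq2, with the build and the strand setting of the counting not given in the sources used here. All columns matched a sample by library name (columns not used: 0). Names came from GENCODE M21 for 49326 of 49585 genes. Low counts (2 to 101) were even in 68.8% of cases.

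Counts were fitted with edgeR 4.0.16 (R 4.3.3): filterByExpr kept 17741 genes, TMM scaled the libraries, and all 16 libraries entered a robust quasi-likelihood model with a mean for each group (common biological coefficient of variation 0.445). The p-values, from two-sided F tests, had Benjamini-Hochberg adjustment across all tested genes, and 0.05 was the threshold. The SE was the log2 fold change over the square root of F, and intervals are 95%. CPM are TMM-scaled, and TPM used GENCODE M21 exon lengths. DESeq2 1.42.0 and limma voom 3.58.1 were alternatives, beside other scalings, no filter, fits to the compared groups only, and leaving libraries out. The test scripts were checked on simulated counts. Figures used matplotlib 3.10.9.

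The 10 genes, the lists and the tests were chosen with earlier results of these data known. Named genes were the 10, up to 3 per list, comparison and direction with the smallest p, and the 2 nearest profiles of each. The lists held 9, 15, 12, 23, 3 and 26 genes of the table, of which Egr4, Klf1, Klf14, Klf17, Mycn, Nme1, Csrnp1 and Npas4 had too few counts to test. Whether each library is its own animal is not stated in the labels, so the p-values reflect only how far these samples vary among themselves.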

Additional observations from a re-analysis of the deposited data

Results flagged for a closer look

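Of 40 sets of 4 libraries (10 genes in 4 groups), 2 held a library that stood apart by Dixon's test, a rule that chance alone meets in about 1 of 20 sets. Both were Ier2. Exposed knockout library 1 read 104 CPM, below the other 3 at 134 to 135 CPM (gap over range 0.973). Exposed control library 2 read 135 CPM, above the other 3 at 128 to 129 CPM (0.834). Ier2 rose after UVB in both genotypes without either library.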

How the results depend on the processing

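No paired analysis was possible because the replicate numbers follow the order of the samples and pair nothing. Over all alternatives, 5 to 7 of the 10 early genes were called after UVB in knockouts and 7 or 8 in controls, and 0 in the genotype comparisons and the response difference. Of all tested genes, knockout against control unexposed called 373, with DESeq2 742, without the 3 libraries above 9% mitochondrial counts (an alternative chosen after seeing the data) 600, and 134 to 435 with 1 library left out. Control libraries 2, 3 and 4 (225, 144, 134) and knockout libraries 1 and 2 (148, 168) each moved it. After UVB it called 830, with DESeq2 1516, without the 3 libraries 525, and 419 to 1356 with 1 left out, where exposed control libraries 2 and 3 (1356, 529) and exposed knockout libraries 1, 2 and 3 (492, 419, 520) moved it. The response difference called 0, with no filter 2, with DESeq2 31, without the 3 libraries 1, and 0 to 2 with 1 left out. Upper-quartile scaling turned the unexposed split of 171 higher and 202 lower into 180 and 136 (45.8% against 57.0% higher). It also turned the knockout UVB split of 3207 higher and 2503 lower into 2746 and 2894 (56.2% against 48.7% higher), and RLE scaling turned the exposed genotype split of 418 and 412 into 390 and 489. No scaling moved the median of all genes by 0.1.

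Values that changed sign were near 0. Unexposed Ier3 (-0.01) was 0.026 with upper-quartile and 0.018 with RLE scaling, 0.0076 with no filter, 0.018 with DESeq2, 0.0012 with voom, 0.019 in its own groups and 0.073 without the 3 libraries. Unexposed Klf6 (-0.01) was 0.023, 0.014, 0.014 and 0.016 with upper quartile, RLE, DESeq2 and its own groups. Without the 3 libraries unexposed Myc was 0.064, exposed Egr1 -0.089, and the response differences of Egr3 and Ier5 -0.091 and -0.030. With no filter that of Egr1 was 0.0035. With 1 library left out the unexposed log2 fold changes ranged from -0.030 to 0.13 for Ier2, -0.14 to 0.10 for Ier3, -0.17 to 0.11 for Klf6 and -0.15 to 0.078 for Myc. After UVB they ranged from -0.028 to 0.24 for Egr1 and -0.060 to 0.056 for Ier2. The response differences ranged from -0.20 to 0.11 for Egr1, -0.18 to 0.065 for Egr2, -0.10 to 0.24 for Egr3, -0.18 to 0.0040 for Ier2 and -0.021 to 0.17 for Ier5. In knockouts after UVB, Klf7 (0.10) ranged from -0.021 to 0.19, and was -0.016 without unexposed library 3, -0.0074 without exposed library 2 and -0.021 without exposed library 3. The cause was not tested.

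Counts of the related lists moved by over 1.5 times mainly between genotypes. Serum early genes called unexposed were 2, with DESeq2 5, with voom 1, without the 3 libraries 4, and 1 to 4 with 1 left out, and after UVB 3, in their own groups 1, without the 3 libraries 1, and 0 to 4. MYC targets were 0 unexposed and up to 3, and 1 after UVB and 0 to 3. After UVB the MYC network was 0 and up to 2, and SRF and EGR regulators 0 and up to 1. After UVB in knockouts SRF and EGR regulators were 2 and up to 4, and GADD45 and IER relatives 1 and up to 2. The response difference called 1 serum early gene with DESeq2. MYC targets called after UVB were 20 to 21 in knockouts and 17 to 21 in controls, and serum early genes 14 to 17 and 18 to 20. Of 52 calls of named list genes, 43 held in every alternative. At 4 libraries a group, the intervals above bound what a difference could be.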
